A study of Enchytraeus albidus with 21 samples.

Results

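Enchytraeus albidus, the white potworm, is a small annelid of soil and decaying matter that is used as a test species in soil ecotoxicology. The transcripts described here were measured with 275 probes of a custom Agilent array whose identifiers give only a plate, a well, an end and a serial number, as in P5_D7_T7_1329838. They were taken from the 321 probes named in this way, out of 1035 worm probes on the array, and were kept when detected on all 3 arrays of at least 1 group of experiment 1. An array detected a probe where the scanner software marked 0.5 or more of the probe's usable spots as well above background. The level at which these transcripts lie in experiment 1 therefore chose them, and their detection there is a description and not a result.

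The 21 arrays fall into 6 groups of whole adult worms whose clitellum, the gland that forms the cocoon, was developed. In experiment 1, worms were held for 2 days in soil treated with acetone, for 2 days in untreated control soil, or were taken from the culture at day 0, with 3 replicates of each. In experiment 2, worms were held in control soil for 2, 4 or 8 days, with 4 replicates of each. A replicate was 10 worms, kept in a vessel with 25 g of moist soil at 20 °C under 16 h of light and 8 h of dark, except the culture worms. Acetone is a common solvent for bringing poorly soluble test chemicals into soil, so that solvent controls are a standard part of such tests. The groups address what the transfer from culture to test soil, the solvent and the length of the exposure each change.

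The files do not pair the probes with genes, and probe sequences were not used here, so every transcript is named by its identifier. T7 and SP6 are phage promoters that flank the insert in many cloning vectors and serve as priming sites for sequencing the insert from either end. Probes of this kind are usually designed from such reads of complementary DNA clones, a way to sample the expressed genes of a species before its genome is known. What each clone codes for is not known here, and no function is given to any of them. In extracts of whole worms, fewer cells of a type and less RNA per cell cannot be told apart.

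A level is the log2 processed signal of a probe, averaged over 8 to 15 usable spots, minus the 75th percentile of the array's worm spots, so that 0 marks that percentile. Levels of different probes were not set against each other, since a probe's brightness also depends on its sequence. The 75th percentile itself lay between 868 and 3720 signal units over the arrays, and the median SD among the spots of a member between 0.050 and 0.117 log2 units. At 2 days of experiment 2, arrays 2 and 4 differed by a median of 0.0780 log2 units over all probes, against 0.276 for the next closest of 210 pairs of arrays, and were averaged to 1 sample, which left 20 samples. The members detected per array ranged from 197 to 275, with the lowest counts of 197 on 8-day replicate 3 and 228 on culture replicate 3. The 8-day count of replicate 3 and the 4-day count of replicate 3 (257) lay apart from the others of their groups.

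Members made up 85.7% of the plate-named probes. Of the other worm probes, 608 met the same detection rule. By name these were 84.1% of the Ealb_Met probes, 83.3% of the Ealb_Pest probes and 89.5% of the contigs, so the members' share lay within this range. Of the plate-named probes labelled T7, 191 of 226 were members, and of those labelled SP6 84 of 95. The share per plate was 56 of 62 on plate 1, 61 of 73 on plate 2, 52 of 62 on plate 3, 46 of 53 on plate 4 and 60 of 71 on plate 5. Entry was thus spread over both labels and all 5 plates. No 2 of the 321 identifiers shared a well, so that no pair of ends of 1 well could be compared.

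Most members were detected throughout experiment 1. All 3 groups let in 225 of the 275, acetone and control soil together another 38, acetone and culture 1, control soil alone 9 and culture alone 2. On experiment 1's 9 arrays, 225 were detected on every one and 36 on 8, and each of the 36 was missed on culture replicate 3 only. The array with the fewest detections in its experiment therefore set most of the incomplete entries.

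The threshold of the rule lies mainly among dim probes. Just inside it, P3_B1_SP6_1371431 was detected on 5 arrays of experiment 1 and had levels of -6.50, -8.39 and -7.81 in acetone soil, -6.68, -5.96 and -7.50 in control soil, and -7.47, -5.35 and -6.99 in culture. Just outside it, P2_E1_T7_1328897 was detected on 6 arrays, though never on all 3 of a group, and had levels of -7.80, -7.28 and -9.51 in acetone soil, -8.28, -7.67 and -7.19 in control soil, and -6.51, -7.08 and -6.97 in culture. P2_D7_T7_1328936, also outside, was detected on 5 arrays and ranged from -9.44 to -3.81 over these 9. The ranges on either side of the threshold overlap. Also just inside, P2_B7_T7_1328934 was detected on 5 arrays but was not dim in culture, with a mean of -2.51 there.

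Experiment 2 was not used to choose the members, and there 246 of the 275 were detected on every 2-day array, 252 on every 4-day array and 196 on every 8-day array. Without 8-day replicate 3 the 8-day count was 265. Of the 46 plate-named probes left out, none was detected on every array of any group of experiment 2, and 18 were detected on no array at all. On all 21 arrays together, 193 members were detected. Detection in experiment 1 thus carried over to nearly all members in experiment 2, and 8-day replicate 3 held most of the exceptions. Members detected on no array of a group numbered 3 at 2 days, 1 at 4 days and 5 at 8 days.

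The middle of the members' levels moved little between groups. Each array was scaled to a percentile of its worm spots, the members' among them, so a steady middle is partly set by the scaling. The median of the group means was -2.18 in acetone soil, -1.85 in control soil and -2.20 in culture, and -2.28, -2.18 and -2.37 at 2, 4 and 8 days of experiment 2. Between 65 and 71 members had a group mean above 0 in each group. A single member ranged over the 20 samples by 0.69 to 10.07 log2 units, with a median of 1.92, and the other probes that met the detection rule by a median of 2.66. The members with wide ranges were few: 35 spanned more than 4 log2 units and 11 more than 6, while 142 stayed within 2.

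**Figure D1:**
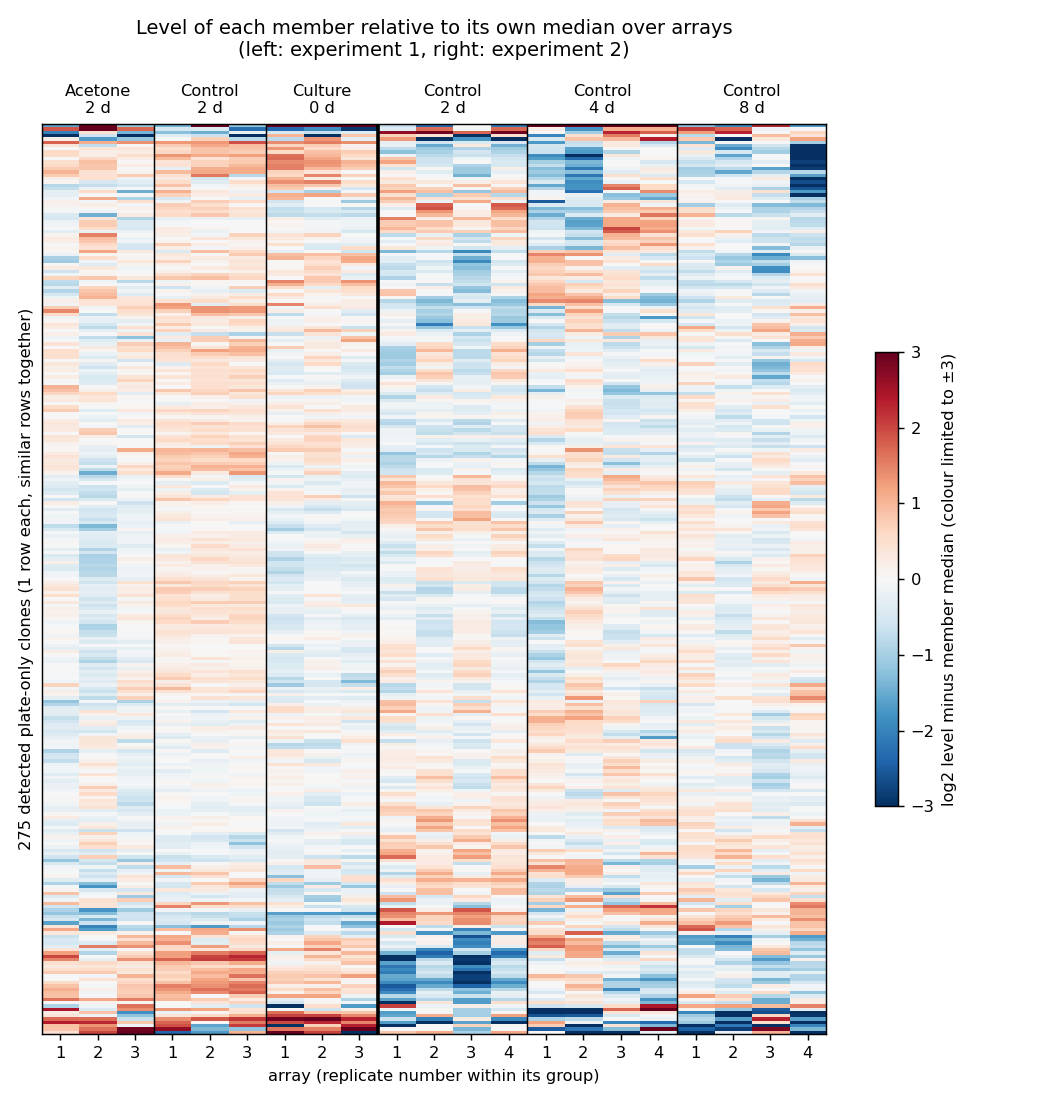
Log2 level of each of the 275 members on each of the 21 arrays, minus that member's own median over the arrays, as colour from -3 (blue) to 3 (red); columns are arrays, grouped as labelled, with experiment 1 left of the heavy line. The median range of a row is 1.92 log2 units, so most cells are pale; the dark blue cells on 8-day replicate 4 are the set described below, and the 2-day arrays of experiment 2 hold further blocks of blue.

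Replicates spread more in experiment 2 than in experiment 1, for members and other probes alike. The median SD of a member within its group was 0.366 in acetone soil, 0.165 in control soil and 0.243 in culture (n = 3 each). In experiment 2 it was 0.431 at 2 days (n = 3), 0.549 at 4 days and 0.406 at 8 days (n = 4 each). Of the 275 members, 228 at 2 days (82.9%), 252 at 4 days (91.6%) and 240 at 8 days (87.3%) had a larger SD than their own in the control soil of experiment 1. Of the other probes 86.7%, 92.8% and 85.0% did so, so nothing is read about the members from these counts. In acetone soil 208 members (75.6%) and in culture 173 (62.9%) did so, beside 64.6% and 60.9% of the other probes. The control soil of experiment 1 had the smallest median SD of all groups. Without the averaged pair of arrays, the 2-day median of experiment 2 was 0.250.

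Within experiment 2 the members spread less than the other probes. The other probes had median SDs of 0.627, 0.760 and 0.633 at 2, 4 and 8 days, and 23.0%, 28.6% and 30.4% of them had an SD over 1, against 9.45%, 16.4% and 9.82% of members. In acetone soil and in culture the order was reversed in the tail, with 6.55% and 2.55% of members and 1.32% and 0.822% of other probes over 1. On the 193 members and 348 other probes detected on every array, the medians were 0.408 and 0.509 at 2 days, 0.538 and 0.676 at 4 days, and 0.385 and 0.493 at 8 days, so the gap was smaller but of the same direction. Members labelled T7 and SP6 had like SDs, for instance 0.564 and 0.517 at 4 days. These are descriptions, since the members were chosen by their signal.

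**Figure D2:**
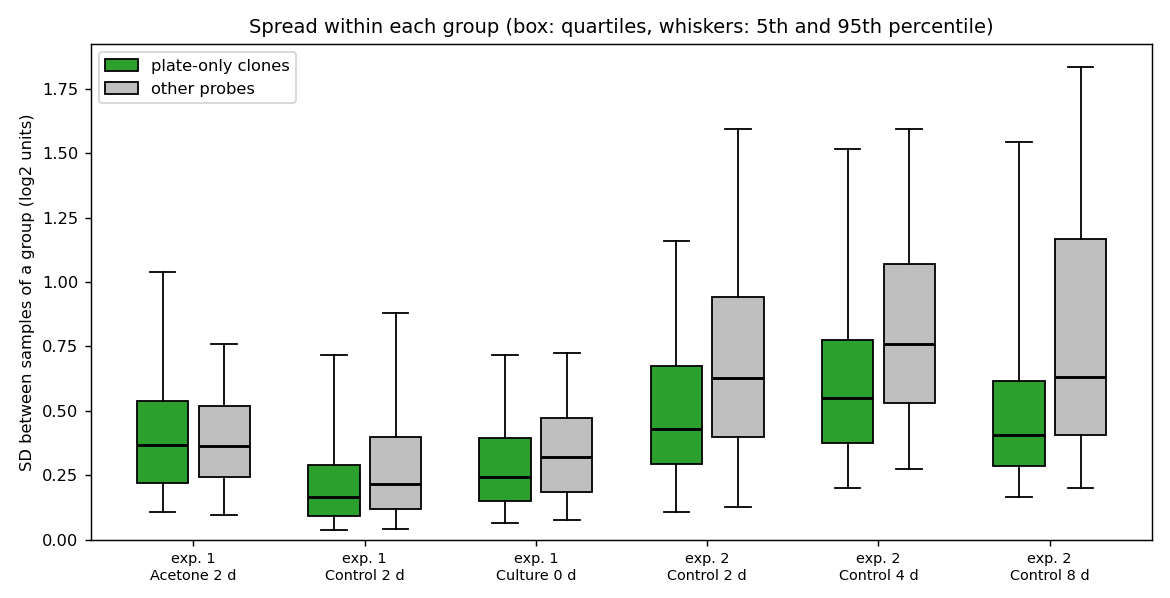
SD between the samples of a group, in log2 units, of the 275 members (green) and of the 608 other probes that met the detection rule (grey); the line is the median, the box the quartiles and the whiskers the 5th and 95th percentiles. The medians of members are 0.366, 0.165 and 0.243 in the groups of experiment 1 and 0.431, 0.549 and 0.406 in those of experiment 2.

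Some single arrays of experiment 2 departed in far more of the other probes than of the members. The averaged 2-day pair lay more than 2 log2 units below every other sample of its group for 0.727% of members and 12.2% of other probes. At 8 days, replicate 3 lay that far above the others for 1.09% of members and 15.0% of other probes. Replicate 4 of that group lay that far below for 9 members (3.27%), against 3.62% of all 883 probes meeting the rule. Other arrays had slightly larger shares in the members, such as 2-day replicate 3, below for 1.09% of members and 0.329% of other probes, and 4-day replicate 2, below for 0.727% and 0.329%. By Dixon's test at the 95% level, 1 array stood apart in 2.33% of the members tested at 4 days and 6.23% at 8 days, beside 4.42% and 6.29% of all probes. The 9 members, chosen here by their departure on replicate 4, had levels of -8.69 to -4.29 on that array, and 8 of them were still detected there. P2_F4_T7_1328917 had -4.71 on replicate 4 and between -0.57 and -0.42 on the other 8-day arrays. P5_H9_T7_1329858 had -4.75 there and between -1.90 and -0.94 elsewhere at 8 days. The set came from all 5 plates, and its median pairwise correlation over the other 19 samples was 0.623, against 0.0557 for all pairs of members over 20 samples.

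The members with the largest spread between replicates switched between high and low levels within single groups. P1_B11_T7_1328879, with a median SD of 3.00, had levels of -4.88, -2.30 and -9.21 in acetone soil, -2.07, -2.35 and -8.89 in control soil, and -0.70, -7.11 and -0.89 in culture. P3_5D_T7_1329685, with a median SD of 2.53, had 0.81, 1.28 and -0.16 in acetone soil, 1.87, -1.63 and 2.04 in control soil, and -6.59, 0.65 and 2.29 in culture. At 8 days P3_5D_T7_1329685 had -7.45, -2.20, -3.40 and -2.03. In control soil and in culture 1 array stood more than 1 log2 unit below the nearest other, and it was not the same array for both probes. P3_C2_T7_1328984, singled out after its values were seen, had -9.62 and -9.59 on 4-day replicates 1 and 2 and -3.40 and -3.47 on replicates 3 and 4. Replicates 1 and 2 were read with a newer scanner than the other 19 arrays, and the part of that in the result was not tested.

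The steadiest members moved by less than 1 log2 unit over all of experiment 1. P2_A12_T7_1328970 had the smallest median SD, 0.118, and stayed between -1.25 and -1.03 in acetone soil, between -0.97 and -0.88 in control soil and between -1.14 and -1.04 in culture. P1_B8_T7_1328861 had a median SD of 0.145 and ran from 2.31 to 2.46 in acetone soil, from 2.33 to 2.54 in control soil and from 2.42 to 2.61 in culture. Both were less steady in experiment 2, where P2_A12_T7_1328970 ranged from -1.38 to -0.29 at 4 days and P1_B8_T7_1328861 from 1.83 to 3.34 at 2 days.

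After 2 days in control soil, set against worms from culture, 1 member passed the test. P5_D7_T7_1329838 had levels of 2.32, 2.41 and 2.13 in control soil, against 0.95, 1.15 and 0.83 in culture. The groups did not overlap, and the gap between them was wider than the range of either. The level rose 2.47-fold, to 2.29 ± 0.14 in control soil against 0.98 ± 0.16 in culture (SD, n = 3 each), a log2 difference of 1.31 with a standard error of 0.18 and an adjusted p of 0.0341 in limma. It was the single call among 883 probes tested, or 0.113%. In acetone soil the same probe had 1.64, 1.68 and 1.88, between the other groups.

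The same probe varied more in experiment 2 than across the groups of experiment 1. P5_D7_T7_1329838 had 1.31, 3.59, 1.75 and 3.37 at 2 days, 0.32, 0.42, 2.59 and 2.74 at 4 days, and 2.27, 1.52, 0.75 and 0.79 at 8 days. The low 4-day values were on the arrays of the newer scanner. Of all worm probes, P4_C2_SP6_1371456 was most like it, with r = 0.980 over 20 samples that share arrays and scaling. P4_C2_SP6_1371456 had 3.53, 3.55 and 3.38 in control soil, against 2.37, 2.59 and 2.60 in culture, a log2 difference of 0.97 that did not pass (adjusted p = 0.109, limma). In the other direction no member passed, and the smallest p was that of P3_A9_SP6_1371430, with -0.90, -0.69 and -0.66 in control soil and 0.71, 0.02 and 0.59 in culture (log2 difference -1.19, adjusted p = 0.109, limma).

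Over the 225 members detected on every array of both groups, the median difference between control soil and culture was 0.26 log2 units, against 0.12 over all probes tested and 0.08 over the other probes. Of these members 105 had no overlap between the groups, 87 with control soil higher and 18 with it lower. That is 46.7%, beside 32.6% of all probes tested (22.9% higher and 9.74% lower). At an unadjusted p under 0.05 there were 70 members (31.1%) and 154 of all probes (17.4%). All probes tested needed detection on every array of only 1 group, so these shares are not like for like. Culture replicate 3 detected 61.0% of the other probes and 82.9% of the members. With quantile normalization the members' median was 0.09 and that of the other probes -0.02, and 0.05 and 0.00 in the authors' deposited table. With median centring they were 0.04 and -0.14, and with a model-based background correction (normexp) 0.21 and 0.05. The members' median thus stayed above 0 and above that of the other probes, by amounts that differed with the scaling. P5_D7_T7_1329838 no longer passed under quantile normalization, median centring or in the authors' deposited table (adjusted p = 0.0980, 0.0965 and 0.130), and without any 1 of 7 of the 9 arrays (0.0555 to 0.288). The exceptions were acetone replicate 2 and culture replicate 3, and without acetone replicate 2 there were 18 member calls in place of 1.

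**Figure D3:**
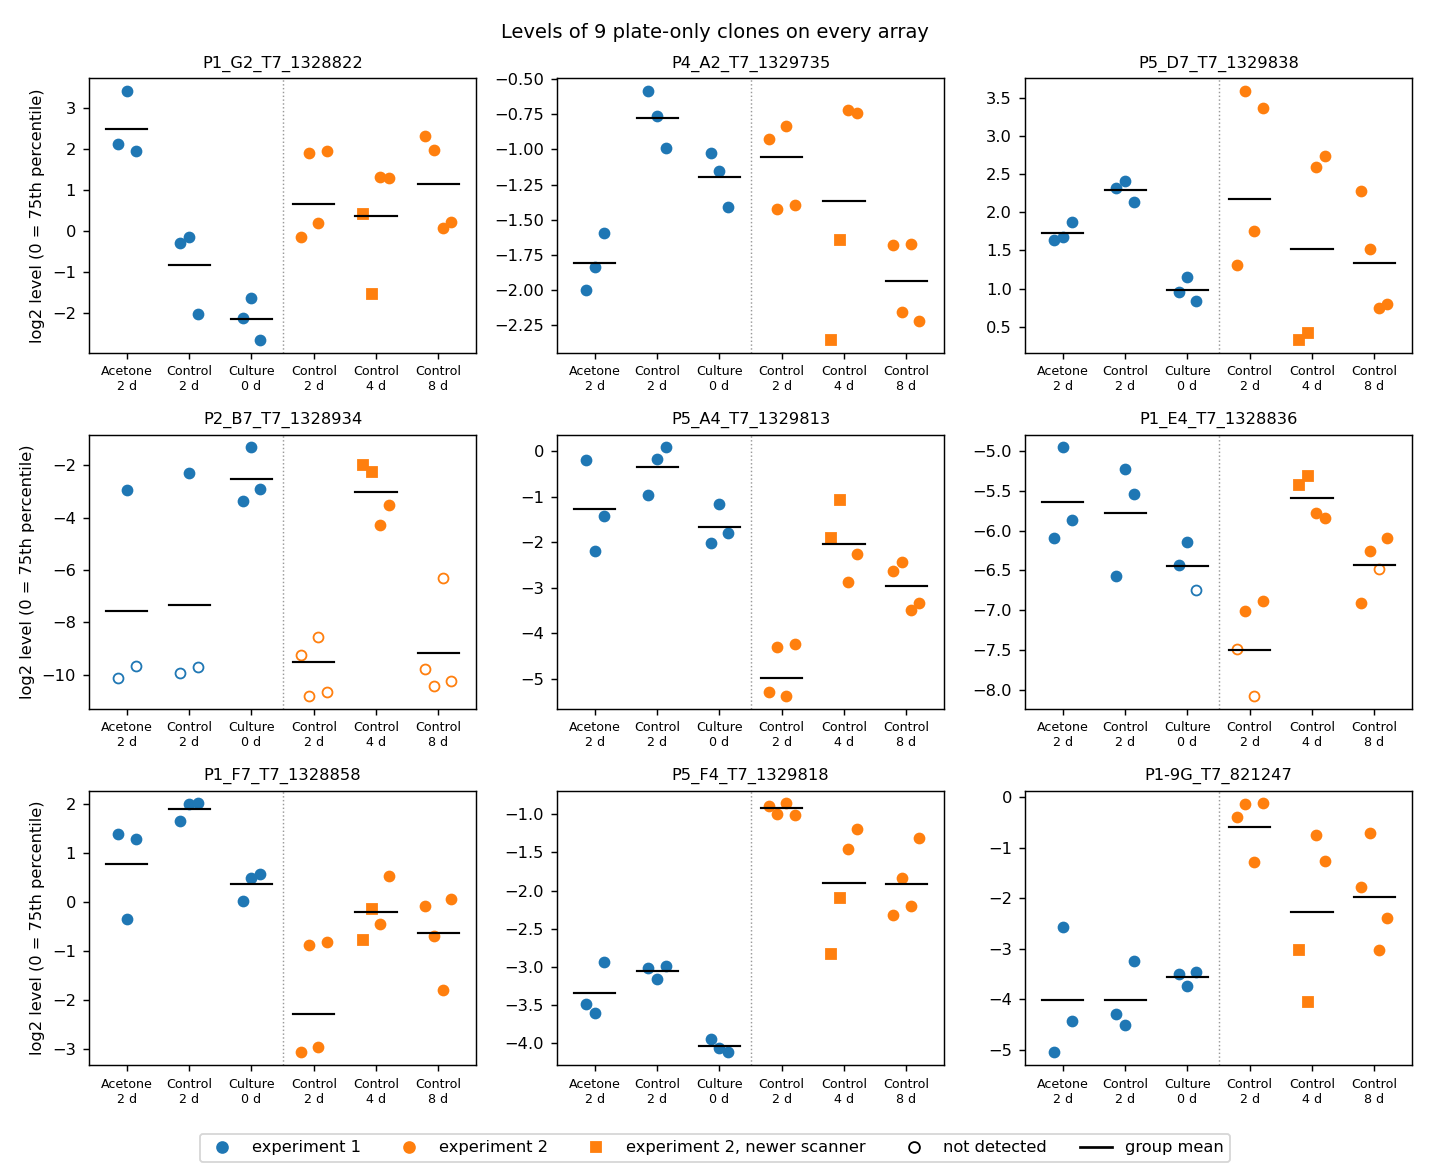
Log2 levels of 9 members on every array (0 is the array's 75th percentile); points are arrays, squares are 4-day arrays of the newer scanner, open points were not detected, and bars are group means. P1_G2_T7_1328822 has its highest group mean in acetone soil, though some arrays of experiment 2 reach the acetone range. P2_B7_T7_1328934 is detected on all arrays only in culture and at 4 days. P5_F4_T7_1329818 lies higher at 2 days of experiment 2 (-1.0 to -0.86) than in the 2-day control soil of experiment 1 (-3.16 to -2.99).

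After 2 days in acetone soil, set against control soil of the same age, 4 members passed the threshold, 1 higher and 3 lower, among 263 members detected on every array of both groups. Over all 883 probes tested, 6.23% were called (2.15% higher and 4.08% lower), so the members' share of 1.52% was below that of the table. The 883 needed detection on every array of only 1 group, so the shares are not like for like. P1_G2_T7_1328822 had levels of 2.11, 3.42 and 1.94 in acetone soil, against -0.29, -0.16 and -2.05 in control soil. Its lowest acetone array lay more than 2 log2 units above its highest control array. It rose 10.0-fold, to 2.49 ± 0.81 in acetone soil against -0.84 ± 1.05 in control soil (SD, n = 3 each), a log2 difference of 3.32 with a standard error of 0.55 (adjusted p = 0.0186, limma).

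P1_G2_T7_1328822 was low in culture and variable in experiment 2. It had -2.12, -1.65 and -2.67 in culture, and -0.16, 1.90, 0.18 and 1.95 at 2 days of experiment 2 in soil without acetone. At 4 days it had 0.40, -1.54, 1.31 and 1.28. At 8 days it had 2.31, 1.97, 0.06 and 0.22, so 2 of the 8-day arrays reached the acetone range. So did 2-day replicate 4 of experiment 2 (1.95), while its near-identical replicate 2 (1.90) lay just below the lowest acetone array (1.94). The probe most like it was Contig126, with r = 0.989 over the 20 samples, followed by Contig19 with r = 0.933. Both had also passed for acetone, with log2 differences of 3.06 (adjusted p = 0.0194) and 4.10 (adjusted p = 0.0186) in limma. Whether these probes read the same transcript was not tested. The difference for P1_G2_T7_1328822 lay between 2.72 and 3.71 under 17 other settings, and missed the threshold in the authors' deposited table (adjusted p = 0.0644) and without acetone replicate 2 (0.0648).

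The 3 members that fell in acetone soil fell by about 1 log2 unit. P4_A2_T7_1329735 had -2.0, -1.84 and -1.60 in acetone soil, against -0.58, -0.76 and -0.99 in control soil (log2 difference -1.03, standard error 0.20, adjusted p = 0.0256, limma). P4_E2_T7_1329739 had -2.80, -3.21 and -2.93 in acetone soil, against -2.11, -2.23 and -1.90 in control soil (log2 difference -0.91, adjusted p = 0.0365, limma). P4_E3_T7_1329744 had -3.99, -4.83 and -4.12 in acetone soil, against -3.15, -3.09 and -3.27 in control soil (log2 difference -1.14, adjusted p = 0.0374, limma). In each of the 3, every acetone array was below every control array. The culture arrays of P4_A2_T7_1329735 lay between the groups at -1.02, -1.15 and -1.41, whereas those of P4_E3_T7_1329744 reached the control level on 2 arrays (-3.07 and -3.06). For P4_E2_T7_1329739 the culture mean of -2.84 ± 0.23 was near that in acetone soil, -2.98 ± 0.21, and control soil stood apart at -2.08 ± 0.17 (SD, n = 3 each).

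The falls stood against a general shift. The median member difference was -0.35 and that of all probes -0.31 log2 units, and 214 of the 263 members were lower in acetone soil. The comparison of control soil with culture uses the same control arrays, so the 2 comparisons are not independent. The median of the members' group means was -1.85 in control soil, against -2.18 in acetone soil and -2.20 in culture. No acetone or culture array was scanned on the day of the control arrays, so group and scan day cannot be told apart. Groups did not overlap in 102 members, 94 of them lower, or 38.8%, beside 37.4% of all probes (3.85% higher and 33.5% lower). The looser detection rule for all probes applies here too. After median centring of the arrays, the medians were 0.04 and 0.07, and under quantile normalization -0.06 and -0.07. All 3 falls then remained negative but missed the threshold, at -0.65, -0.52 and -0.76 log2 units with median centring. Under each of these scalings 3 members were called, all higher and 1 of them (P1_G2_T7_1328822) shared with the 4. Without acetone replicate 2 no member passed.

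At 4 days, set against 2 days in control soil of experiment 2, 3 of the 257 members tested rose and none fell, beside 0.466% of the 859 probes tested (0.349% higher and 0.116% lower). Among the 241 members detected on every array of both times, 1 rose and 0 fell. The other 18 members did not reach detection on every array of a group in experiment 2. P5_A4_T7_1329813 had -1.92, -1.06, -2.87 and -2.27 at 4 days, against -5.28, -4.30, -5.38 and -4.23 at 2 days. No array of the groups overlapped, and the probe was detected on all of them. It rose 7.71-fold, to -2.03 ± 0.75 at 4 days (n = 4) against -4.97 ± 0.62 at 2 days (SD, n = 3), a log2 difference of 2.95 with a standard error of 0.48 (adjusted p = 0.0194, limma).

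P5_A4_T7_1329813 was lowest at 2 days of experiment 2. At 8 days it had -2.63, -2.43, -3.49 and -3.33, again without overlap with 2 days, but the log2 difference of 2.01 did not pass (adjusted p = 0.259, limma). In experiment 1 it had -0.20, -2.20 and -1.43 in acetone soil, -0.97, -0.18 and 0.09 in control soil, and -2.01, -1.17 and -1.79 in culture. Its 4-day rise was 2.41 log2 units without the arrays of the newer scanner, an alternative that left 2 arrays at 4 days, and did not pass there (adjusted p = 0.201, limma). It also missed the threshold without 2-day replicate 1, 2-day replicate 3 or 4-day replicate 1 (0.0762 to 0.179). Of the 3 rises it was the only member detected on every array of both times.

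The other members that rose at 4 days entered the test through the 4-day group, in which they had to be high, so nothing is read from their p-values. P2_B7_T7_1328934 was detected on all 4 arrays at 4 days, with -1.99, -2.27, -4.28 and -3.52, and on none at 2 days, with measured levels of -9.26, -10.82, -8.54 and -10.65. Against the lowest signals well above background on the 2-day arrays, its level was at least 21.5-fold higher at 4 days. The adjusted p of 0.0194 (limma) belongs to the fitted log2 difference of 6.50, which uses the undetected levels, and not to this bound. No 8-day array detected it, with -9.79, -10.42, -6.30 and -10.24, and its level was at least 16.0-fold lower at 8 days than at 4 days. The adjusted p of 0.0213 (limma) likewise belongs to the fitted log2 difference of -6.17. Within experiment 2 the probe was thus detected on every 4-day array and on no other.

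P2_B7_T7_1328934 was likewise either well detected or far below in experiment 1, where the culture arrays let it in. It had -3.34, -1.30 and -2.90 in culture and was detected on all 3. In acetone soil it had -10.11, -2.96 and -9.67 and in control soil -9.93, -2.31 and -9.71, with detection on 1 array of each, replicate 2. Levels between these states occurred only on 8-day replicate 3. P1_B11_T7_1328879 was the other member let in by culture alone, and the 9 let in by control soil alone had means there of -7.31 to -5.24. Without the arrays of the newer scanner, the 4-day calls of P2_B7_T7_1328934 were lost (adjusted p = 0.201 against 2 days and 0.166 against 8 days), with 2 arrays left at 4 days. The fitted log2 differences, which are no bounds, were then 5.61 and -5.28, against 6.50 and -6.17 with all arrays, and both remaining arrays were detected.

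P1_E4_T7_1328836 was dim throughout. It had -5.43, -5.32, -5.78 and -5.84 at 4 days, against -7.48, -7.01, -8.08 and -6.88 at 2 days, where 2 of 4 arrays detected it. The log2 difference was 1.91 with a standard error of 0.36 (adjusted p = 0.0449, limma). With a model-based background correction (normexp) the difference was 0.22 and did not pass (adjusted p = 0.881, limma). At 8 days the levels were -6.91, -6.26, -6.48 and -6.09, all below the 4-day levels, with 1 in the range of the single 2-day arrays. With the near-identical 2-day arrays averaged, the 8-day and 2-day groups did not overlap.

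The member with the smallest p in the falling direction at 4 days, P4_D2_SP6_1371461, had 0.23, -0.24, -1.0 and -1.42 at 4 days and 1.13, 0.56, 0.57 and 0.61 at 2 days (log2 difference -1.37, adjusted p = 0.255, limma). Over the 257 members, the median difference between 4 and 2 days was 0.01, against -0.26 over all probes tested and -0.36 over the other probes. With quantile normalization these were 0.25, 0.01 and -0.09, and with normexp 0.01, -0.17 and -0.22, so the members' median lay above that of the other probes in each, by differing amounts. Groups did not overlap in 29 members, 18 higher and 11 lower, or 11.3%, beside 7.68% of all probes (2.79% higher and 4.89% lower). Without 2-day replicate 1, 2-day replicate 3 or 4-day replicate 1 no member passed, and without the averaged 2-day pair 8 did. From the arrays of the newer scanner alone, 12 members passed, 9 higher and 3 lower, and without those arrays none did.

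The scanner split was visible in the members themselves. On the 4-day arrays, 42 members (15.3%) lay more than 1 log2 unit lower on both arrays of the newer scanner than on both others, and 34 (12.4%) that much higher. Of the other probes, 13.5% lay lower and 23.4% higher. The scanner, the scan day and the replicate cannot be told apart on these 4 arrays, and their part in the 4-day results was not tested.

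At 8 days, set against 2 days, no member passed, and no probe of the 859 did (0%). At an unadjusted p under 0.05 there were 17 members, and 42 probes in all (4.89%). The lowest adjusted p of a member was 0.259, that of P5_A4_T7_1329813 above. P4_5D_T7_1329751 had the smallest p among lower members, with 1.56, 2.19, 1.27 and 1.26 at 8 days and 2.78, 4.35, 2.57 and 4.42 at 2 days, 2 of which are the averaged pair (log2 difference -1.67, adjusted p = 0.473, limma). The median member difference was -0.06 log2 units, against -0.16 over all probes, and groups did not overlap in 37 members, 16 higher and 21 lower, or 14.4%, beside 9.08% of all probes (3.38% higher and 5.7% lower). In no other setting did a member pass.

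At 8 days, set against 4 days, 1 member passed, the fall of P2_B7_T7_1328934 given above, beside 1.05% of all probes (0.931% higher and 0.116% lower). That probe entered the test through the 4-day group, where it is high, and among the 196 members detected on every array of both times none passed. All 8 probes called higher in the table lay outside the members. The smallest p among rising members was that of P5_F9_SP6_1372042, with -1.36, -0.90, -1.46 and -1.35 at 8 days and -1.81, -2.13, -1.88 and -2.08 at 4 days (log2 difference 0.71, adjusted p = 0.645, limma). Its arrays did not overlap, as in 17 members or 6.61% (4 higher, 13 lower), beside 4.66% of all probes (2.44% higher and 2.21% lower). The median difference was -0.07 in members, 0.09 over all probes and 0.21 over the others. With median centring these were -0.40, -0.23 and -0.11, and with quantile normalization -0.21, -0.07 and 0.00, so the side of 0 for all probes and for the others depends on the scaling. More than a doubling was seen in 0 of the 257 members and more than a halving in 16. Among the 16 was P2_B7_T7_1328934, which no 8-day array detected. The 5th and 95th percentiles of the difference were -1.03 and 0.57 in members and -0.70 and 1.44 in the other probes. These differences shift with the scaling, so nothing is read about the members from the counts. The 3 comparisons of times share their groups and are not independent of each other.

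**Figure D4:**
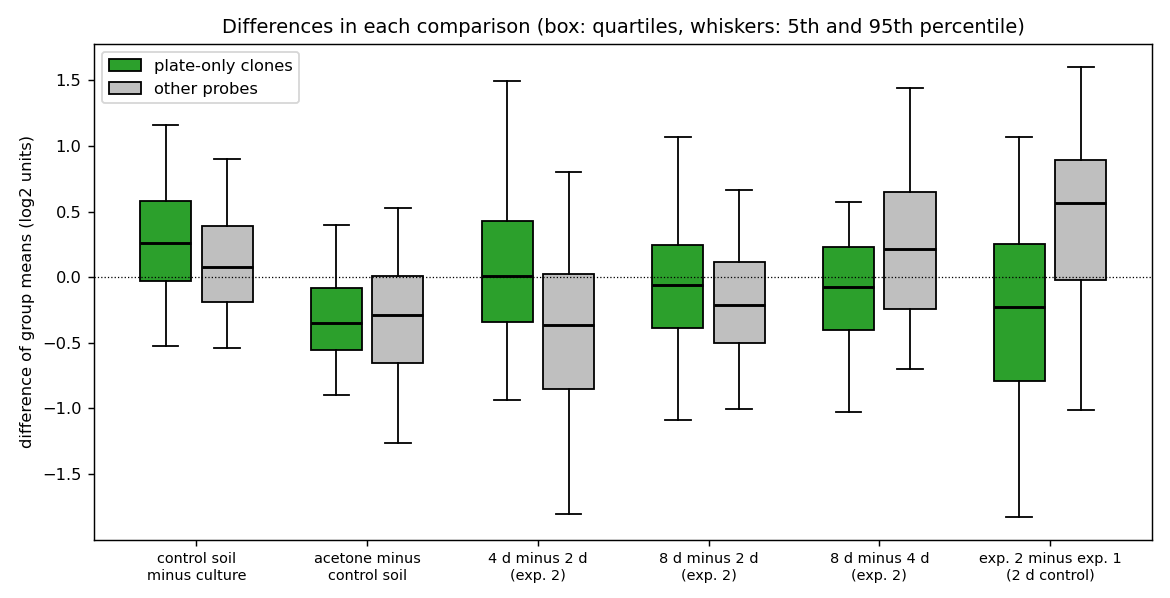
Differences of group means, in log2 units, in the 6 comparisons, for the members counted in each (green, 225 to 263) and for the other probes tested (grey); the line is the median, the box the quartiles and the whiskers the 5th and 95th percentiles. The medians of members and of other probes are -0.23 and 0.57 between the experiments, on opposite sides of 0; those of 4 against 2 days (0.01 and -0.36) and 8 against 4 days (-0.07 and 0.21) also are, but not under every scaling.

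Worms held for 2 days in control soil in experiment 2 and in experiment 1 shared their nominal condition, and more members passed than in any comparison within an experiment. Of 245 members detected on every array of both, 26 passed (10.6%), 5 higher and 21 lower in experiment 2, beside 7.42% of the 889 probes tested (2.81% higher and 4.61% lower). The 889 needed detection on every array of only 1 group, so the shares are not like for like. The 21 fell by a median of 1.93 log2 units, from 1.17 to 4.62, and the 5 higher ones differed by 1.04 to 3.42. P5_A4_T7_1329813, with its levels given above, was 24.6-fold lower in experiment 2 (log2 difference -4.62, standard error 0.43, adjusted p = 0.00898, limma). P1_F7_T7_1328858 had -3.06, -0.87, -2.94 and -0.81 in experiment 2, against 1.65, 2.01 and 2.02 in experiment 1, and was 18.0-fold lower (log2 difference -4.17, adjusted p = 0.0131, limma).

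Of the higher members, 1 was tight within each experiment and the other less so. P5_F4_T7_1329818 had -0.89, -0.99, -0.86 and -1.0 in experiment 2, against -3.02, -3.16 and -2.99 in experiment 1, 4.42-fold higher in experiment 2 (log2 difference 2.14, standard error 0.21, adjusted p = 0.00987, limma). P1-9G_T7_821247 had -0.38, -0.13, -1.28 and -0.12 in experiment 2, against -4.29, -4.50 and -3.24 in experiment 1 (log2 difference 3.42, adjusted p = 0.0131, limma). Neither pair of groups overlapped. The SDs were 0.0754 in experiment 2 and 0.0885 in experiment 1 for P5_F4_T7_1329818, and 0.606 and 0.674 for P1-9G_T7_821247. At 4 days of experiment 2, P1-9G_T7_821247 had -3.03, -4.06, -0.74 and -1.25, so its lower values, on the newer scanner, reached the range of experiment 1.

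The levels of both sets at the later times were as follows. The 21 lower members had a median level of -3.71 at 2 days of experiment 2 and -1.66 in control soil of experiment 1, and -2.95 at 4 days and -2.88 at 8 days. The 5 higher ones had -0.90 at 2 days of experiment 2 and -3.06 in experiment 1, and -1.89 and -1.92 at 4 and 8 days. Both sets were chosen by their 2-day levels, so nothing is read from a smaller gap at other times. Among the members, P1_E1_SP6_1371394 was most like P5_A4_T7_1329813, with r = 0.928 over the 20 samples.

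Relative to the other probes, members lay lower in experiment 2 than in experiment 1. Each array was scaled to its own worm spots, the members' among them, so the sign of each median is partly set by the scaling. A change in absolute level was not tested. The median difference was -0.23 in members, 0.33 over all probes and 0.57 in the others. With quantile normalization these were -0.39, 0.09 and 0.22, and with normexp -0.11, 0.37 and 0.58. Groups did not overlap in 117 members (47.8%), 37 higher and 80 lower, beside 35.9% of all probes (19.7% higher and 16.2% lower). These shares too are not like for like, given the looser detection rule for all probes. The 2-day controls of the experiments were scanned on different days, so that experiment and scan day cannot be told apart, and with the scan day as a random block no member passed (adjusted p = 0.267 for P5_A4_T7_1329813). The number of calls rests on single arrays, since none passed without replicate 2 or 3 of the experiment 1 controls, 1 without replicate 1, 5 and 7 without 2-day replicates 1 and 3 of experiment 2, and 118 (36 higher, 82 lower) without the averaged pair.

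Among all 37675 pairs of members, the levels over the 20 samples correlated with a median r of 0.0557, and 34 pairs had r over 0.9. The closest pair was P2_E9_T7_1328952 and P3_G9_T7_1329717, from different plates, with r = 0.9996 and an SD of their difference of 0.0203 log2 units. P2_E9_T7_1328952 had 2.34, 3.22 and 2.04 in acetone soil, 2.39, 2.45 and 2.45 in control soil, and 2.54, 2.41 and 2.34 in culture. P3_G9_T7_1329717 had 2.26, 3.17 and 2.01 in acetone soil, 2.35, 2.44 and 2.41 in control soil, and 2.5, 2.40 and 2.31 in culture. At 4 days both fell and rose together, with 1.85, 0.83, 3.60 and 3.69 for the first and 1.86, 0.81, 3.59 and 3.64 for the second.

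The second closest pair was P2_D8_T7_1328944 and P5_B7_T7_1329836, also from different plates, with r = 0.998 and an SD of their difference of 0.0258. P2_D8_T7_1328944 had -1.75, -2.64 and -1.73 in acetone soil, -1.43, -1.40 and -1.40 in control soil, and -2.20, -1.87 and -1.99 in culture. P5_B7_T7_1329836 had -1.79, -2.70 and -1.74 in acetone soil, -1.44, -1.45 and -1.43 in control soil, and -2.21, -1.84 and -2.0 in culture. Both pairs share acetone replicate 2 as the array of experiment 1 that departs most from its group, upward in the first pair and downward in the second. Correlations over these samples rest on shared arrays and scaling, and are given as a description.

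**Figure D5:**
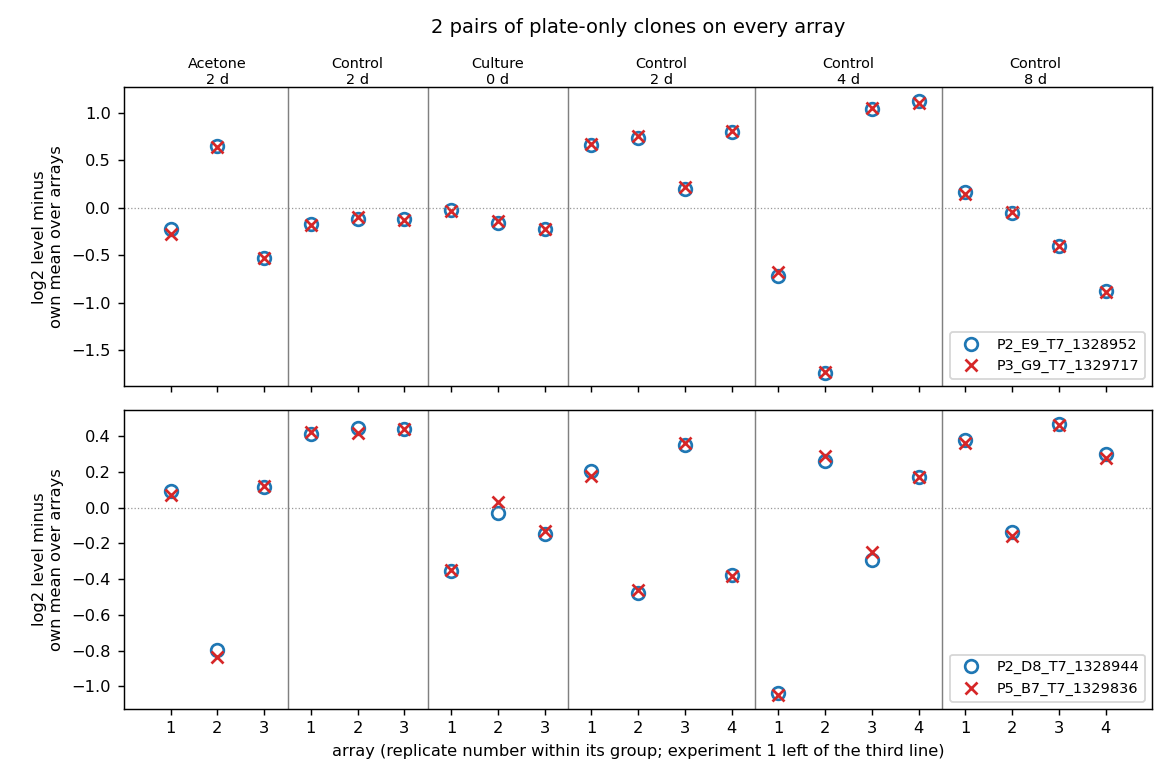
Log2 levels of the 2 closest pairs of members on every array, each minus that probe's own mean over arrays; circles and crosses are the probes of a pair, vertical lines divide the groups, and experiment 1 is left of the third line. The marks of a pair lie on each other throughout, with an SD of the difference of 0.0203 in the upper and 0.0258 in the lower panel, while the pair itself ranges over more than 1 log2 unit.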

How the data were processed

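Whole-worm RNA was labelled with Cy3 (0.5 µg per labelling) and hybridised to 21 single-colour arrays. The authors deposited 1 scanner file per array, in which the processed spot intensity was corrected for background but not scaled across arrays, per the file headers. Feature Extraction was version 10.5.1.1 for 19 arrays, per the file headers and the submitters' processing notes, and a later version with a newer scanner for 4-day replicates 1 and 2. The authors' deposited table holds log2 values with 144 missing, made by a normalization that no source used here names; it was used within an experiment only.

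Control spots (536 per array) and outlier spots were dropped but saturated spots stayed in. Log2 intensities were averaged per probe and scaled to each array's 75th percentile. Tests used limma 3.58.1 in R 4.3.3 (two-sided), with Benjamini-Hochberg adjustment over all probes tested and a threshold of 0.05, in 1 fit per experiment and 1 for the 2-day controls. A probe was tested when detected on every array of at least 1 group. Since experiment 1 chose the members, comparisons that use it count only members detected on every array of both groups. The near-identical arrays 2 and 4 at 2 days of experiment 2 were averaged after the data were seen. Normexp (offset 50) was run on median spot signals, the ones in the files. The fits were tested on simulated data. A fold against a group without detection is a lower bound, taken against the lowest detected signal on each of its arrays.

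The members and lists were chosen with earlier results of these data known. Named are, per comparison, all calls where fewer than 5 passed, otherwise the 2 largest in each direction, or the smallest p where none passed; the 2 largest and 2 smallest spreads; the 2 closest pairs; probes at the threshold of the rule; and members let in by 1 group. P4_C2_SP6_1371456, P3_C2_T7_1328984, P1_E1_SP6_1371394, P2_F4_T7_1328917 and P5_H9_T7_1329858 were named after their values were seen. Replicates are separate vessels or samplings, per the labels, and replicate numbers were not taken to pair samples. Correlations of same-numbered deviations were not all positive in any comparison, which cannot exclude a pairing. For 8 against 2 days they were 0.534, 0.729 and 0.344 in replicates 2, 3 and 4, and -0.353 in replicate 1. No scan day or slide held arrays of both groups of a comparison, so no within-day value exists. The number of arrays limits the precision.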

Additional observations from a re-analysis of the deposited data

Results flagged for a closer look

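In groups of 4 arrays, an array was singled out when its gap to the nearest other, divided by the range of the group, was above Dixon's 95% critical value. Chance alone singles out about 1 in 20 groups at that level.

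P2_F4_T7_1328917 had -4.71 on 8-day replicate 4, and between -0.57 and -0.42 on the other 8-day arrays. P1_B8_T7_1328861, 1 of the steadiest members, had 1.41 on 8-day replicate 3, and between 2.01 and 2.10 on the others. P2_B7_T7_1328934, not detected at 8 days, had -6.30 on the same replicate and between -10.42 and -9.79 on the others. P2_E1_T7_1328897, just outside the rule that chose the members, had -6.55 on 4-day replicate 1 and between -9.14 and -8.91 on the others.

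The number of members detected departed on 2 arrays. On 8-day replicate 3 it was 197, against 267 to 269 on the other 8-day arrays. On 4-day replicate 3 it was 257, against 267 to 268 on the other 4-day arrays.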

How the results depend on the processing

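None of the 18 differences of named members that were recomputed turned its direction under any alternative run on it. For 4 against 2 days, the 3 member calls became 2 with median centring, without a filter and with a random block for scan day, 1 in the authors' deposited table, with quantile normalization, a strict filter, the replicate block and without the arrays that detected the fewest members, 0 with normexp and without the newer scanner, and 12 from that scanner's arrays alone. For 8 against 4 days, the 1 call became 3 from those arrays alone, and 0 without them and with the replicate block, the scan day block and the strict filter. For acetone, the 4 calls became 1 in the authors' table, and that member was none of the 4. The count was 1 with the replicate block, 2 without a filter and 73 with the scan day block. The estimated correlation of the scan day block was -0.211, so that it narrows the errors by construction. In every comparison, the calls counted under a setting need not be those of the main fit. For control soil against culture, the 1 call became 0 with quantile normalization, median centring, the authors' table and the replicate block, 2 with normexp and the strict filter, 7 without a filter and 33 with the scan day block. Between the experiments, the 26 calls became 41 with quantile normalization, 52 with the near-identical arrays kept separate, and 0 with the replicate block and the scan day block (correlation 0.841). The 0 calls of 8 against 2 days stayed 0 in every setting. Leaving out 1 array at a time gave 0 to 8, 0 to 1, 0 to 5, 0 to 18 and 0 to 118 calls for 4 against 2 days, 8 against 4 days, acetone, control soil against culture and between the experiments. The replicate block changed these calls, and whether the replicate numbers pair samples is not known. The alternatives on the newer scanner and on the arrays with the fewest detections were chosen after seeing the data. Apart from these constructions, the cause of a change was not tested. For P1_E4_T7_1328836, which lies near background, the 4-day call held in 2 of the 11 fits that left out a replicate. The parts of low signal and of the number of arrays were not tested.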
